A study of Rattus norvegicus with 10 samples.

Results

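Endothelial marker genes were followed in white adipose tissue (fat) of 10 male rats on a noodle diet or a control diet. The 10 genes were Pecam1, Cdh5, Kdr, Tek, Tie1, Vwf, Emcn, Egfl7, Esam and Cldn5, chosen by name, and every probe set that the array's annotation gives to exactly 1 of them was taken. This gave 11 probe sets for 9 of the 10 genes, out of 31042 probe sets tested and 14217 genes named by them. Cdh5, the adherens junction cadherin of endothelium, is named by no probe set in the annotation used here and was not analysed.

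Endothelial cells line the inside of blood and lymph vessels. They are held together by adhesion and tight junction proteins, they sense growth factors through receptors such as the VEGF and angiopoietin receptors, and they shed or store proteins that act in clotting and vessel shape. In fat, capillaries run between the adipocytes and pass lipid, oxygen and hormones to and from them.

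The noodle group (5 rats, numbered 1, 4, 7, 10 and 13) received a diet of which 30% by weight was instant noodle and in which fat supplied 26% of the energy. The control group (5 rats, numbered 2, 5, 8, 11 and 14) is described as having that diet minus its seasonings. All rats were 13 weeks old and were pair-fed, about 60 g daily per kg of weight, with free water and a light/dark cycle of 12 hours. The labels give 30 days of feeding in 1 place and 4 weeks in another, and neither strain nor fat depot is stated in the labels.

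One array was hybridised per sample, and each labelled sample was taken as 1 rat, so p-values measure the spread between these samples. Array medians lay between 6.17 and 6.18 log2 units, and correlations between arrays over all probe sets lay between 0.993 and 0.998. The extraction text of the labels names brain, while the tissue field names white adipose tissue. As a description of the markers, and not a comparison between probe sets, the median level was 12.2 for 11 measured adipocyte markers (Car3 highest at 13.6) and 5.75 for 8 measured brain markers (Mbp highest at 8.76). The deposited values are mostly nearly constant: the SD over the 10 arrays was above 0.01 for 8.40% of the probe sets. Probe sets with an SD of 0.01 or less are called flat here. Of the 11 endothelial probe sets, 6 were not flat (1 each for Pecam1, Kdr, Vwf, Emcn, Egfl7 and Cldn5) and 5 were flat. All levels are log2 signals, and the level of 1 probe set cannot be set against that of another.

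Of the junction genes, Pecam1 (CD31), an adhesion molecule at endothelial cell contacts that platelets and leukocytes also carry, showed its highest values in controls. The control rats 2, 5, 8, 11 and 14 stood at 8.84, 8.54, 8.53, 8.71 and 8.95, and the noodle rats 1, 4, 7, 10 and 13 at 8.49, 8.77, 8.49, 8.60 and 8.57. Noodle rat 4 was the 1 noodle rat above the control mean, and the groups overlapped. Its mean was 8.58 ± 0.11 for noodle rats and 8.71 ± 0.19 for control rats (SD, n = 5 each).

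Cldn5, the main claudin of endothelial tight junctions, stood at 8.51, 8.64, 8.34, 8.46 and 8.26 in control rats 2, 5, 8, 11 and 14, and at 8.23, 8.64, 8.21, 8.38 and 8.01 in noodle rats 1, 4, 7, 10 and 13. Noodle rats 1, 7 and 13 lay below every control, while noodle rat 4 equalled the highest control to 2 decimals. Its mean was 8.29 ± 0.24 for noodle rats and 8.44 ± 0.15 for control rats. Esam, an immunoglobulin-like adhesion molecule of endothelial junctions, has a flat probe set at 8.60 on every array.

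Of the receptor genes, Kdr encodes VEGF receptor 2, which passes the growth signal of VEGF into endothelial cells. Its brighter probe set read 9.08, 8.98, 8.87, 9.04 and 8.47 in control rats 2, 5, 8, 11 and 14, and 8.76, 9.05, 9.04, 8.87 and 9.02 in noodle rats 1, 4, 7, 10 and 13. Control rat 14 was the lowest of all 10, followed by noodle rat 1, and control rat 2 was the highest. Its mean was 8.95 ± 0.13 for noodle rats and 8.89 ± 0.25 for control rats. The other Kdr probe set was flat at 5.66. As a description and not a comparison of levels, the 24 control probe sets for Bacillus transcripts, flat too, had means from 5.05 to 5.89. Whether this Kdr probe set read above background was not tested.

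The angiopoietin receptor Tek (Tie2) and its relative Tie1 have 1 flat probe set each. Tek stood at 8.51 on every array and Tie1 between 7.540 and 7.553. In Tie1 the highest arrays were control rat 14 at 7.553, noodle rat 4 at 7.550 and control rat 2 at 7.549.

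Of the secreted and surface proteins, Vwf encodes von Willebrand factor, which endothelial cells store and release to tether platelets. It stood at 7.33, 7.02, 6.99, 7.18 and 6.99 in control rats 2, 5, 8, 11 and 14, and at 6.97, 7.37, 6.94, 7.04 and 6.99 in noodle rats 1, 4, 7, 10 and 13. Noodle rat 4 and control rat 2 stood clear of the rest, and 7 of the 10 rats lay between 6.94 and 7.04. The means were 7.06 ± 0.18 and 7.10 ± 0.15 in the noodle and control groups.

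Emcn encodes endomucin, a mucin-like glycoprotein on the surface of capillary and venous endothelium. It read 9.03, 8.59, 8.61, 8.89 and 8.74 in control rats 2, 5, 8, 11 and 14, and 8.61, 9.19, 8.63, 8.81 and 8.79 in noodle rats 1, 4, 7, 10 and 13. Again noodle rat 4 was highest, followed by control rats 2 and 11, and 4 rats from both groups lay together at the low end. The means were 8.81 ± 0.23 and 8.77 ± 0.19.

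Egfl7, a protein that endothelial cells secrete into the matrix of forming vessels, stood at 8.23, 7.97, 7.94, 8.31 and 8.14 in control rats 2, 5, 8, 11 and 14. In noodle rats 1, 4, 7, 10 and 13 it stood at 7.97, 8.35, 7.93, 8.06 and 8.01. The 3 highest rats were noodle rat 4, control rat 11 and control rat 2. The means were 8.06 ± 0.17 and 8.12 ± 0.16, and the other Egfl7 probe set was flat at 7.24.

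**Figure D1:**
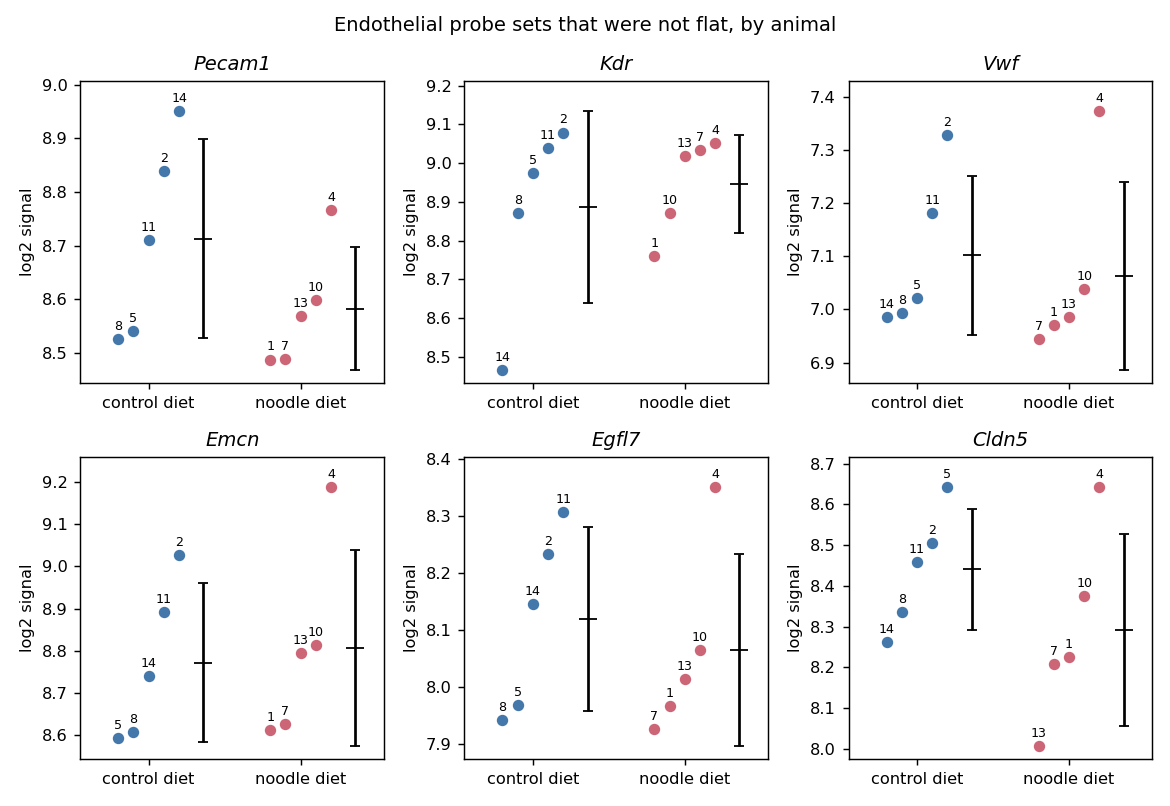
Log2 signal of the 6 endothelial probe sets that were not flat, 1 point per rat with the rat's number, beside the group mean and SD (bar, n = 5); the axes do not start at 0. The diet groups overlapped in all 6, noodle rat 4 was the highest noodle rat in all 6, and control rat 14 held both the highest Pecam1 value (8.95) and the lowest Kdr value (8.47).

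The diets were then compared gene by gene, always as noodle minus control. No endothelial probe set passed the threshold. With limma's moderated test and Benjamini-Hochberg adjustment over all 31042 probe sets, 0 of 11 passed an adjusted p of 0.05, against 0% of all probe sets, with 0.993 as their lowest adjusted p. The unadjusted p was under 0.05 for 0 of 11, where 4.77% of all probe sets (2.48% higher and 2.29% lower) and 8.13% of those not flat reached it. Of the 6 that were not flat, 4 had a lower mean in the noodle group and 2 a higher one, where 55.4% of all probe sets that were not flat had a lower mean. The groups overlapped in all 6, and 0.959% of all probe sets that were not flat had groups that did not overlap. Without noodle rat 4, 1 of the 6 had a higher mean. This rat was the highest noodle rat in all 6, so leaving it out could only lower each noodle mean. No share over all probe sets was computed without this rat, here or for the lists below. The median difference of the 6 was -0.05 log2 units, beside -0.01 over the 1632 genes whose brightest probe set was not flat, of which 905 were lower and 727 higher.

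Cldn5 differed by -0.15 ± 0.12 log2 units (SE, n = 5 per group) with a 95% confidence interval from -0.42 to 0.13. It was -0.078 without noodle rat 13, -0.098 without control rat 5 and -0.237 without noodle rat 4, and with an RNA quality measure (the gap between 3-prime and 5-prime control signals) as a covariate it turned to 0.08. Pecam1 differed by -0.13 ± 0.09 (interval -0.35 to 0.08), and by -0.072 without control rat 14. Both had a mean 1.1-fold lower on the noodle diet, with 1 of 5 noodle rats above the control mean, and neither passed. Kdr differed by 0.06 ± 0.12 (interval -0.21 to 0.34), and its sign turned to -0.04 without control rat 14, to -0.00196 with array weights and to -0.0375 with the hybridization controls as a covariate. With the RNA quality covariate it was 0.196. Emcn differed by 0.03 ± 0.13 (interval -0.26 to 0.33), and it turned to -0.06 without noodle rat 4, to -0.010 without control rat 5 and to -0.0064 without control rat 8. Egfl7 and Vwf differed by -0.05 ± 0.10 (interval -0.28 to 0.18) and -0.04 ± 0.10 (interval -0.27 to 0.19), and Vwf turned to 0.02 without control rat 2. On the linear scale the intervals of the 6 genes together ran from 0.745-fold to 1.26-fold, so differences of that size remain possible at 5 arrays per group.

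**Figure D2:**
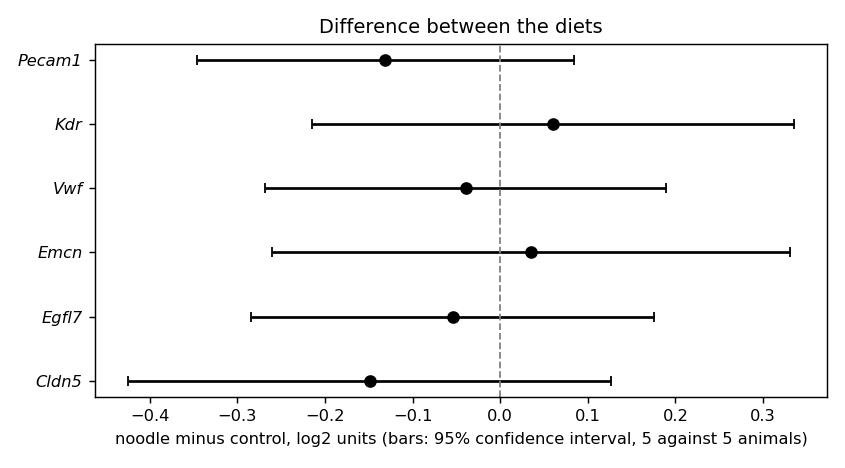
Difference between the diets (noodle minus control, log2 units, horizontal axis) for the 6 endothelial genes with a probe set that was not flat, with the 95% confidence interval from limma over 5 against 5 rats. Every interval crosses 0, and the point estimates run from -0.15 for Cldn5 to 0.06 for Kdr.

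A mean endothelial level was formed per rat by centring each of the 6 genes on its mean over the 10 arrays and averaging them. Noodle rats averaged -0.02 ± 0.16 and control rats 0.02 ± 0.12 (SD, n = 5), a difference of -0.046 log2 units that carries no test. The difference was -0.114 without noodle rat 4 and -0.0056 without control rat 2. The rats differed more within a group than the groups did. Noodle rat 4 was highest at 0.25, followed by control rat 2 at 0.19 and control rat 11 at 0.12, and the other 7 rats lay from -0.15 in noodle rat 1 to -0.02 in noodle rat 10. Noodle rat 4 and control rat 2 each ranked among the top 3 rats in 6 of 6 genes, and noodle rat 1 among the bottom 3 in 6 of 6. These counts use the same genes that form the mean, so they only describe it. No such share over all probe sets is given here. In tissue RNA of this kind, fewer endothelial cells and less of these transcripts per cell cannot be told apart.

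The other genes of the vessel wall, from a list of 30, were compared between the diets as well. Of these, 28 were measured and 13 were not flat at their brightest probe set. Of the 28, 0 passed the threshold in limma. An unadjusted p under 0.05 was reached by 1 of 28, which was 1 of the 13, beside 4.77% of all probe sets and 8.13% of those not flat, so the count is near the background. Of the 13, 6 were higher and 7 lower, with a median difference of -0.0014, and without noodle rat 4 the count higher was 4. The gene with the smallest p was Gpihbp1, which holds lipoprotein lipase on the capillary wall. It stood at 9.20, 9.39, 9.23, 9.21 and 9.32 in control rats 2, 5, 8, 11 and 14 and at 9.12, 9.18, 9.11, 9.25 and 9.09 in noodle rats 1, 4, 7, 10 and 13. It differed by -0.12 ± 0.05 (limma, adjusted p = 0.993), and 4 of 5 noodle rats lay below every control. Eng, the endothelial co-receptor endoglin, differed by -0.24 ± 0.12, Mmrn2, a matrix protein of vessels, by -0.011 ± 0.006, and Cd93, a C-type lectin-like receptor of endothelium, by 0.13 ± 0.07, each at an adjusted p of 0.993 in limma.

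Of 20 listed ligands and partners of the vascular receptors, 18 were measured and 6 were not flat, 3 of them higher and 3 lower. Without noodle rat 4 the count higher was 1. Again 0 passed in limma, and 1 of 18 reached an unadjusted p under 0.05, which was 1 of the 6 not flat. At so few genes the count cannot be told apart from the background shares of 4.77% and 8.13%. The 1 gene under 0.05 was Vegfb, a VEGF family ligand that binds VEGF receptor 1. Its noodle rats 1, 4, 7, 10 and 13 stood at 8.78, 9.03, 8.75, 9.24 and 8.82, and its control rats 2, 5, 8, 11 and 14 at 9.25, 9.39, 9.09, 9.03 and 9.33. The difference was -0.29 ± 0.11 (limma, adjusted p = 0.993), with 4 of 5 noodle rats below every control. Of these, noodle rat 4 at 9.027 lay only just under control rat 11 at 9.030. Nrp1, a VEGF co-receptor, differed by -0.14 ± 0.13, the peptide hormone gene Apln by 0.17 ± 0.16 and the Notch ligand gene Jag1 by -0.11 ± 0.12.

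Co-variation over the rats was examined next, as the rise and fall of endothelial genes together. Over the 10 rats the 6 genes gave 15 pairs, whose median Pearson r was 0.513, with a range from -0.302 to 0.922. For comparison, the median r over all 1330896 pairs of the 1632 genes that were not flat was 0.0424. Of the 15 pairs, 6 (40.0%) had an r over 0.6, and 9.22% of all pairs did. By Pearson's r over all 10 rats, the tightest group was made by Vwf, Emcn and Egfl7. By Spearman's rho, Emcn with Vwf (0.673) ranked below Pecam1 with Egfl7 (0.855), Vwf with Cldn5 (0.842) and Pecam1 with Emcn (0.697).

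Emcn and Vwf had an r of 0.922 (permutation p = 0.00031, adjusted over the 15 pairs 0.003225) and a Spearman rho of 0.673 (permutation p = 0.0398, adjusted 0.0921). For Emcn and Egfl7 the r was 0.904 (permutation p = 0.00043, adjusted 0.003225) and the rho 0.842 (permutation p = 0.00387, adjusted 0.01935). For Vwf and Egfl7 the r was 0.871 (permutation p = 0.00296, adjusted 0.0148) and the rho 0.818 (permutation p = 0.00603, adjusted 0.0226). Pecam1 and Egfl7, at an r of 0.759 (permutation p = 0.0116, adjusted 0.0433) and a rho of 0.855 (permutation p = 0.00274, adjusted 0.01935), was the fourth pair past the threshold.

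The calls were repeated with fewer rats. Without noodle rat 4 and control rat 2, the 2 rats farthest from the median endothelial level, 0 of 15 pairs passed. At 8 rats the r was then 0.699 for Emcn and Vwf (exact permutation p = 0.024, adjusted 0.13), 0.840 for Emcn and Egfl7 (exact permutation p = 0.00563, adjusted 0.0844), 0.843 for Vwf and Egfl7 (exact permutation p = 0.0259, adjusted 0.13) and 0.707 for Pecam1 and Egfl7 (exact permutation p = 0.0688, adjusted 0.258). The fall in r was largest for Emcn and Vwf among these 4 pairs, and n fell from 10 to 8. Without noodle rat 4 alone, 2 pairs passed. With the diet group means removed, 2 pairs passed, Emcn with Vwf (r = 0.947, exact permutation within groups, adjusted p = 0.0141) and Emcn with Egfl7 (r = 0.940, adjusted p = 0.0141), and the median r was 0.521.

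The core promoters of 4 members are shown as a description. Over all 10 rats Emcn and Egfl7 rose and fell together, while Kdr and Cldn5 followed them less. That contrast moved with single rats. Without control rat 14 the r of Kdr was 0.587 with Emcn and 0.557 with Egfl7. Without control rat 5 the r of Cldn5 was 0.733 with Emcn and 0.768 with Egfl7. A link between promoter sequence and co-variation was not tested. RefSeq windows on the GRCr8 build were found for 5 of the 10 genes (Kdr, Tie1, Emcn, Egfl7 and Cldn5). Each line gives the 250 bases before an annotated transcript start, 5′ to 3′ on the gene's strand. Capitals mark GGAA on either strand (TTCC when it lies on the other), the core that ETS family factors such as Erg and Fli1 read. Emcn is at chr2:228564289-228564538 (plus strand), Egfl7 at chr3:29805381-29805630 (plus strand, 1 of 2 windows of this gene), Kdr at chr14:32571813-32572062 (plus strand) and Cldn5 at chr11:95718599-95718848 (minus strand).
Emcn: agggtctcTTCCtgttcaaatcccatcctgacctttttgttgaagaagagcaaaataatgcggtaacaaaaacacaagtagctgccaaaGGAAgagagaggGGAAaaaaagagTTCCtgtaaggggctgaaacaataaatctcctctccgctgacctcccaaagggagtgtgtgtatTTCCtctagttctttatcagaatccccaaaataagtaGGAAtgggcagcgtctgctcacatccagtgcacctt
Egfl7: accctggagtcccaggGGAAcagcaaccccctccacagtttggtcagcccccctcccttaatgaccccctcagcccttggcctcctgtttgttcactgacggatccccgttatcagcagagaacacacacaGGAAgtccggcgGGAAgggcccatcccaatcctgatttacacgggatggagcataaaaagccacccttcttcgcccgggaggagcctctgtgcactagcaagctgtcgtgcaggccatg
Kdr: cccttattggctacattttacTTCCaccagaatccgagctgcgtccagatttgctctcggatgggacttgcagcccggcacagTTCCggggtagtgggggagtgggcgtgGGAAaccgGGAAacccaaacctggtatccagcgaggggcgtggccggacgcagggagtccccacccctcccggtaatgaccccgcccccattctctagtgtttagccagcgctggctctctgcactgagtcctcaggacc
Cldn5: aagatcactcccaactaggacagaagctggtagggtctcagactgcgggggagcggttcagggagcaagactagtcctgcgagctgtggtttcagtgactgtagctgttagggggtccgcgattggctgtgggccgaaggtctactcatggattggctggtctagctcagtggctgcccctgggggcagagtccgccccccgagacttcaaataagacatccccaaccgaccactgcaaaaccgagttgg
The GGAA core occurred 6 times in the Emcn window, 3 times in that of Egfl7, 4 times in that of Kdr and 0 times in that of Cldn5. At least 1 copy was present in 93.2% of the 33469 promoter windows of this length, the median count was 3, and 9.27% of windows held 6 or more. The longer CAGGAA, which contains the core, was found 2 times in the Emcn window and 1 time in that of Egfl7, and in 24.7% of all windows. The other Egfl7 window held 2 cores and the Tie1 window 4, with 0 copies of CAGGAA in both. AACAGGAA, which contains both and is the middle of a paired forkhead and ETS motif known from endothelial enhancers, was found 1 time, in the Emcn window, and in 2.14% of all windows. A match of letters is a description and not a binding site.

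Kdr and Pecam1 went apart in 1 rat. Over the 10 rats their r was -0.302 (permutation p = 0.414, adjusted 0.455) and their rho 0.261 (permutation p = 0.471, adjusted 0.489). Control rat 14 had the highest Pecam1 and the lowest Kdr of all, and without it the r was 0.630 (exact permutation, adjusted p = 0.117). Without this rat 6 of 15 pairs passed and the median r rose to 0.630, with Pecam1 at an r of 0.959 with Vwf (exact permutation, adjusted p = 0.00269) and 0.915 with Emcn (exact permutation, adjusted p = 0.00351). Each rat was left out in turn, and control rat 14 is singled out here by its Pecam1 and Kdr values. These p-values are therefore a description and not a test. Without control rats 14 and 2, the farthest in Pecam1, its r with Kdr was 0.539, and without noodle rat 4 and control rat 2 it was -0.666. Control rat 14 also had the highest array median (6.18) and the lowest mean correlation with the other arrays, 0.9948 where the others lay from 0.9959 to 0.9969. Its marker levels were high for mesothelium (0.83), mast cells (0.53) and fibroblasts (0.30). The part of these in its Kdr and Pecam1 values was not tested.

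**Figure D3:**
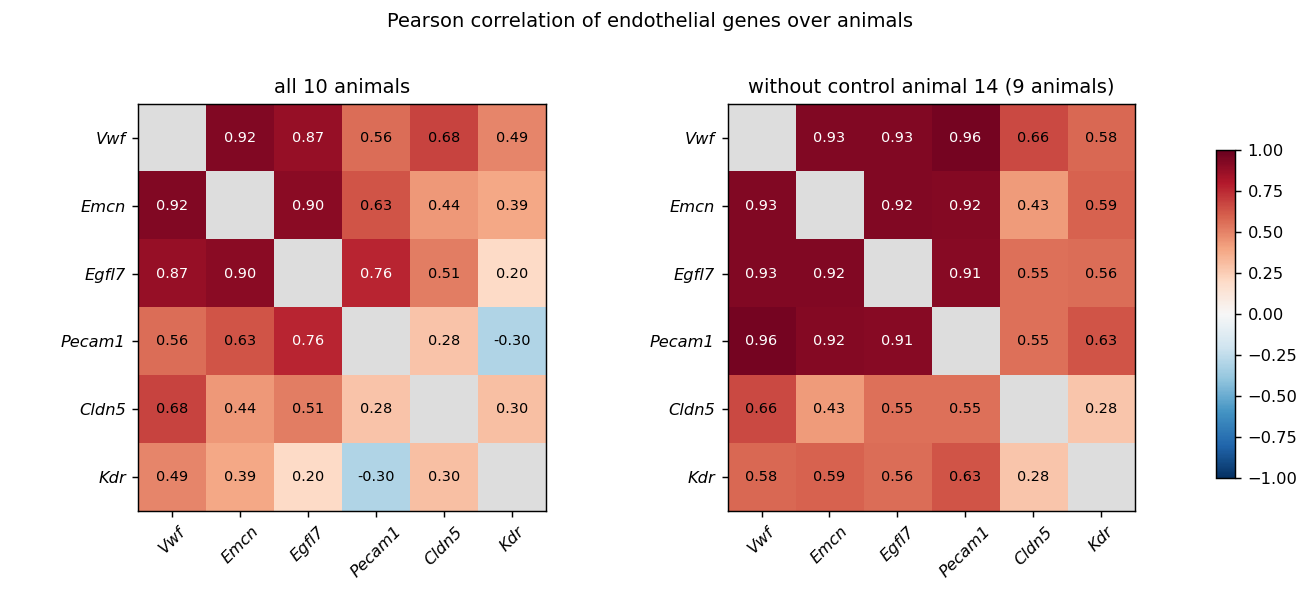
Pearson's r of each pair of the 6 endothelial genes over all 10 rats (left) and over the 9 rats without control rat 14 (right), with colour from -1 to 1 and the value in each cell. Vwf, Emcn and Egfl7 correlate at 0.87 to 0.92 on the left, and the value of Kdr with Pecam1 goes from -0.30 on the left to 0.63 on the right.

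Cldn5 had r from 0.285 with Pecam1 to 0.675 with Vwf over the 10 rats. With Vwf the permutation p was 0.0338 (adjusted 0.101), and by Spearman's rho of 0.842 this pair passed (permutation p = 0.00381, adjusted 0.01935). Control rat 5, the highest in Cldn5 at 8.64, was the lowest of all in Emcn (8.59). Without control rat 5 the r of Cldn5 was 0.855 with Vwf (exact permutation, adjusted p = 0.0031) and 0.768 with Egfl7 (exact permutation, adjusted p = 0.0439). This rat too is singled out by its values in these genes, so these p-values are a description and not a test. Control rat 5 also had the largest gap between 3-prime and 5-prime control probe sets (Actb and Gapdh), 1.06 log2 units, a sign of RNA quality. Over the 10 rats Cldn5 had an r of 0.825 with that difference (permutation p = 0.00388, adjusted over 18 relations 0.0698) and a rho of 0.867 (permutation p = 0.00229, adjusted 0.0412). Without the 2 rats farthest from its median the r was 0.623. The other 5 genes had r between 0.0434 and 0.342 with it, and the other 17 of the 18 relations, which also covered the hybridization controls and the array median, had adjusted p of 0.466 or more for r. By rank Vwf came next, with a rho of 0.685 (permutation p = 0.035, adjusted 0.315) and an r of 0.531 without the 2 farthest rats. The difference lay between 0.753 and 0.926 in the noodle group and between 0.823 and 1.06 in the controls. With it as a covariate, the diet difference of Cldn5 turned from -0.15 to 0.08 log2 units and that of Vwf from -0.04 to 0.04. The r with the hybridization controls was negative for every gene, from -0.567 for Emcn to -0.0326 for Cldn5. Their mean signal was lowest in control rat 2 (9.82), noodle rat 13 (9.83) and noodle rat 4 (9.83). In the others it lay from 9.89 to 10.3. The part of this measure in the co-variation was not tested.

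The flat probe sets were also set against the others, a comparison added after the values were seen. Their whole range over 10 rats is 0.013 log2 units for Tie1 and under 0.001 for Tek, Esam, the other Egfl7 probe set and the other Kdr probe set, so no size can be read from them. The order of the rats in some of them followed the genes that were not flat. Because the comparison was added late, its p-values are a description and not a test. No share is given for flat probe sets of other genes. Of 30 relations, Tie1 with Pecam1 had an r of 0.923 and a rho of 0.915 (permutation p = 0.00012 and 0.00055, adjusted 0.0018 and 0.00825). Esam with Egfl7 had an r of 0.912 and a rho of 0.976 (permutation p = 7e-05 and 3e-05, adjusted 0.0018 and 0.0009). Tek with Cldn5 had an r of 0.835 and a rho of 0.745 (permutation p = 0.00262 and 0.0169, adjusted 0.01965 and 0.0665). The flat and the other Egfl7 probe set had an r of 0.852 and a rho of 0.879 (permutation p = 0.00087 and 0.00168, adjusted 0.0087 and 0.0168). Without the 2 rats farthest from the median of the gene named second these r were 0.831, 0.903, 0.753 and 0.734. The flat Kdr probe set had r between -0.225 and 0.2 with the 6 genes, and 0.752 was its lowest adjusted permutation p.

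**Figure D4:**
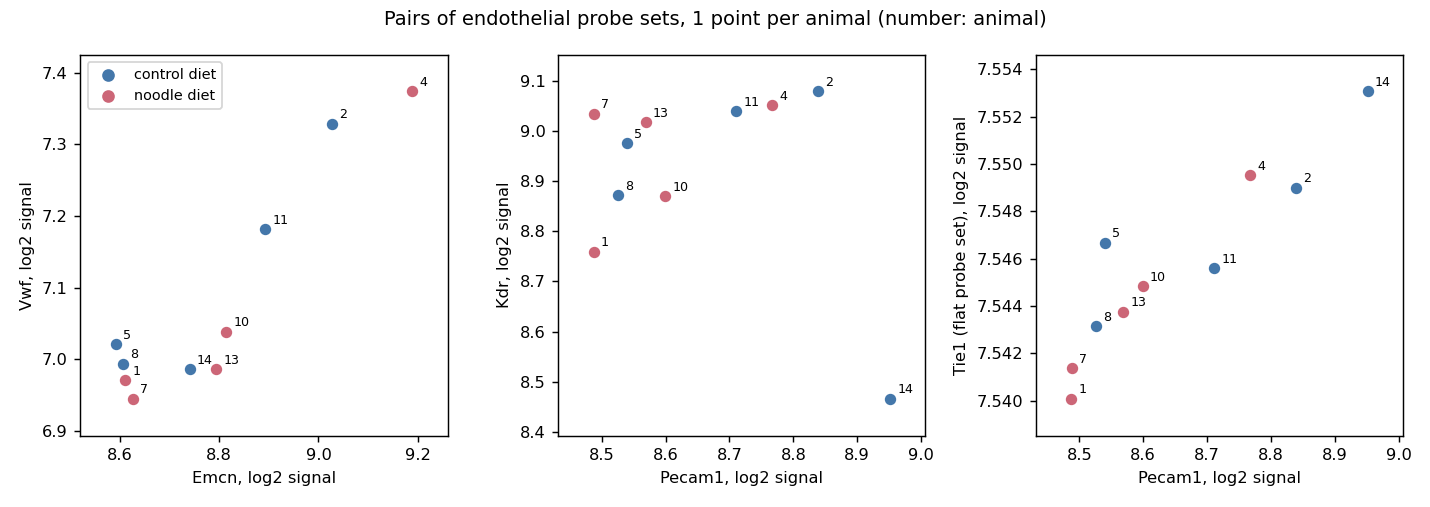
Log2 signals of Emcn against Vwf, Pecam1 against Kdr, and Pecam1 against the flat probe set of Tie1, 1 point per rat, coloured by diet and numbered; the Tie1 axis spans about 0.013 log2 units. Noodle rat 4 and control rat 2 lie at the top right of the first panel, control rat 14 lies alone at 8.95 and 8.47 in the second, and it is the highest in both Pecam1 and Tie1 in the third.

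Genes outside the 10 were ranked by their Pearson r with the mean endothelial level over the 10 rats, as a description without a test because they were picked by that value. Of 2074 probe sets that were not flat, 13 had an r over 0.8, 30 had a negative r larger than 0.8 in size, and the median was 0.00915. The highest was Ldb2, a binding partner of LIM-domain proteins, with an r of 0.969 (0.888 without noodle rat 4 and control rat 2). It stood at 7.74 in noodle rat 4 and 7.68 in control rat 2 and at 7.10 in noodle rat 1. Next came the lipid phosphatase gene Plpp3 at 0.923 (0.798 without these rats) and Rbm3, a cold-inducible RNA-binding protein, at 0.892 (0.624). The basement membrane genes Lamb2 and Nid1 had r of 0.842 and 0.833 (0.793 and 0.624), the chemokine gene Cxcl12 0.833 (0.613), the corepressor gene Sin3b 0.827 (0.939) and the tetraspanin gene Cd81 0.827 (0.552).

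The 4 genes with the most negative r were Hsdl2, a peroxisomal dehydrogenase-like protein (r = -0.927), Aldh7a1 of lysine breakdown (-0.910), Ivd of leucine breakdown (-0.906) and Ndufab1, the mitochondrial acyl carrier protein (-0.888). Ivd stood at 8.87 in noodle rat 4 and 8.95 in control rat 2, and between 9.14 and 9.44 in the other 8 rats. Without noodle rat 4 and control rat 2 the 4 values were -0.922, -0.738, -0.630 and -0.699. None of these 12 genes had an adjusted p under 0.99 between the diets in limma.

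Markers of other cell types were set beside the mean endothelial level, with and without the 2 highest rats. Among 12 listed smooth muscle and pericyte genes, all 12 measured and 5 not flat, the mean centred level was 0.19 in noodle rat 4 and 0.35 in control rat 2. Its range was -0.16 to 0.19 in the noodle group and -0.14 to 0.35 in the controls, and its r with the mean endothelial level was 0.649 over 10 rats and -0.0674 without these 2. For fibroblast genes (6 of 8 not flat, -0.22 to 0.30 in noodle and -0.21 to 0.30 in control rats) the values were 0.478 and -0.0563. For lymphatic genes (5 of 7, -0.21 to 0.50 and -0.18 to 0.25) they were 0.474 and -0.340. The other endothelial genes (13 of 30, -0.11 to 0.09 and -0.08 to 0.08) had an r of 0.764 over 10 rats and 0.727 without these 2. Genes of activated endothelium (3 of 6) had an r of 0.652 and 0.122, and the ligands and partners (6 of 20) 0.683 and 0.368.

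Macrophage genes (12 of 12 not flat, -0.21 to 0.31 in noodle and -0.37 to 0.21 in control rats) had an r of -0.171 over 10 rats and -0.857 without the 2. Adipocyte genes (5 of 12, -0.10 to 0.10 and -0.06 to 0.14) had an r of -0.332 and 0.114, and red blood cell genes (3 of 7, -0.45 to -0.02 and -0.22 to 0.34) an r of -0.540 and -0.330. Noodle rat 4 held the lowest red blood cell level (-0.45) and the highest macrophage level (0.31). For mast cells (5 of 8, -0.24 to 0.31 and -0.17 to 0.53) the r were 0.337 and 0.285, and for mesothelium (8 of 9, -0.60 to 0.22 and -0.67 to 0.83) 0.0157 and 0.592. These values describe the same 10 RNA samples as the endothelial genes, and the part of other cell types in the endothelial levels was not tested. The median pairwise r was 0.883 for mast cells, 0.851 for macrophages, 0.845 for mesothelium and 0.807 for fibroblasts, beside 0.513 for the endothelial genes. It was 0.828 for red blood cells, 0.511 for lymphatic genes, 0.346 for smooth muscle and pericytes, 0.286 for the other endothelial genes (78 pairs), 0.0327 for adipocytes and 0.0106 for the ligands and partners. For activated endothelium (3 pairs) it was -0.190.

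**Figure D5:**
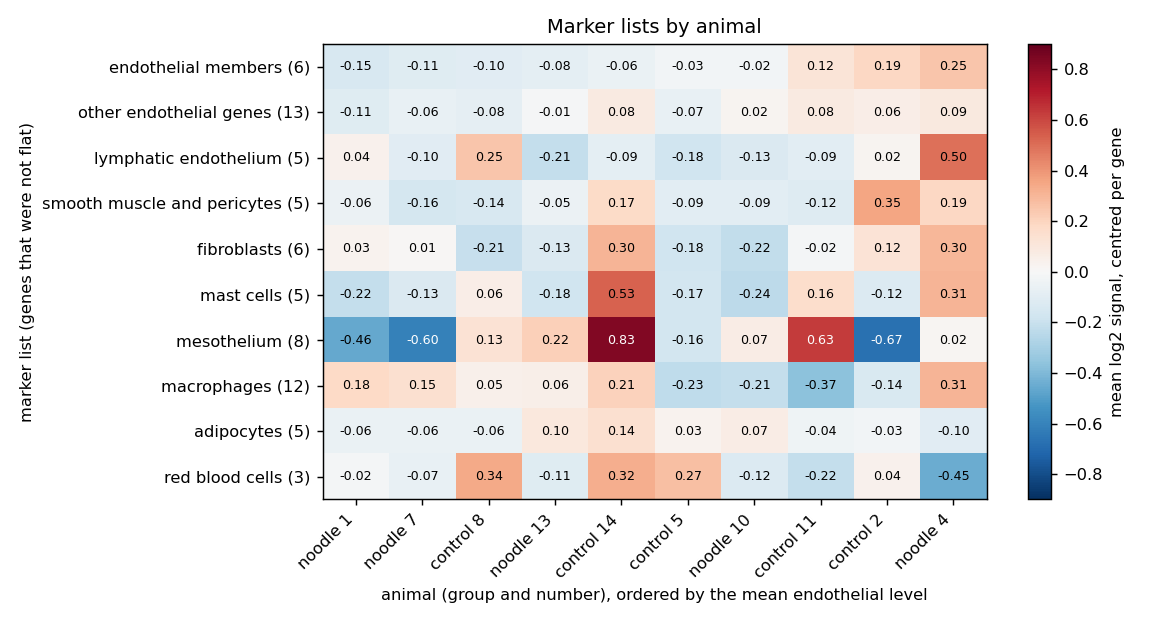
Mean log2 signal of each marker list (rows, with the number of genes that were not flat) in each rat (columns, ordered by the mean endothelial level), centred per gene, with the value in each cell. The top row runs from -0.15 in noodle rat 1 to 0.25 in noodle rat 4 with both diets mixed along it. Noodle rat 4 is also high for lymphatic markers (0.50), macrophages (0.31), mast cells (0.31), fibroblasts (0.30) and smooth muscle (0.19). It is low for red blood cell markers (-0.45) and adipocytes (-0.10) and stands at 0.02 for mesothelium.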

How the data were processed

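One value per probe set and array was deposited by the authors, taken here as log2 from its range (4.73 to 13.9). For the logarithm's base, summarisation and normalization, nothing is given in the sources used here. Per the labels' protocols, biotin-labelled cRNA was made from 100 ng of total RNA. Of 31099 probe sets, 57 array controls were left out of the tests. Genes were named from the platform annotation where it gives 1 symbol, and 9 of 9 endothelial gene identifiers matched the current RefSeq table.

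Diets were compared by lmFit and eBayes of limma 3.58.1 under R 4.3.3 (two-sided, Benjamini-Hochberg over all 31042 probe sets). Pairs of genes (brightest probe set per gene) were compared by Pearson's r and Spearman's rho with two-sided permutation tests (100000 resamples for 10 rats, exact for fewer or within groups). Genes named outside the 10 were taken by rule: up to 4 per vascular list with the smallest p, the 8 highest and 4 lowest correlations with the mean endothelial level. The members and lists were chosen with earlier results of these data known. Alternatives were other scalings, filters, an intensity trend, array weights, covariates and leaving out each rat; leaving out noodle rat 4 and control rat 2 together, the marker lists without noodle rat 4 and the comparison of flat probe sets were added after seeing the data. The diet comparison was tested on simulated data with 200 of 31042 probe sets changed, all picked from those not flat. There limma called 35% at a change of 0.5 log2 units and 79% at 1, and 6.56% of its calls were false. Each probe set was simulated on its own, without the co-variation between probe sets that the data hold.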

Additional observations from a re-analysis of the deposited data

Results flagged for a closer look

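One result stood out by a gap test within a group of 5. Vwf in noodle rat 4 read 7.37, while the other 4 noodle rats lay between 6.94 and 7.04, and the gap took up 0.781 of the group's range (Dixon's critical value for 5 samples is 0.71). The same rat was the highest noodle rat in Emcn (9.19), Egfl7 (8.35), Pecam1 (8.77), Kdr (9.05) and Cldn5 (8.64), without reaching that value of the gap. Of 14 groups examined, over the 6 genes and their mean, 1 stood out, where chance gives about 1 in 20 (0.7 of 14).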

How the results depend on the processing

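Over the scalings, filters, intensity trend, weights and covariates tried, 0 probe sets passed between the diets, and leaving out single rats gave 0 to 1 (1 without control rat 14). Endothelial probe sets passing stayed at 0 in every setting, those leaving out single rats included. The lowest adjusted p of the 6 member differences in any of 120 refits was 0.368 (limma). In 24 of these, from 4 settings on filters, floor and trend, the estimate is the reported one by construction, and of the other 96 refits 85 kept its sign. Array weights turned Kdr to -0.00196 and Emcn to -0.00137 log2 units, the hybridization covariate turned them to -0.0375 and -0.125, and the 3-prime to 5-prime covariate turned Cldn5 to 0.0848 and Vwf to 0.0409. Leaving out single rats gave Kdr differences from -0.0449 to 0.108, Emcn from -0.0606 to 0.0989, Cldn5 from -0.237 to -0.0776, Pecam1 from -0.178 to -0.0717, Egfl7 from -0.126 to -0.00727 and Vwf from -0.117 to 0.0172. The mean endothelial difference lay between -0.114 and -0.00557 without single rats and was -0.0731 without noodle rat 4 and control rat 2, a setting chosen after seeing the data. The median r of the 15 pairs fell to 0.292 without the 2 rats farthest from the median and lay between 0.432 and 0.630 without single rats. The 4 pairs past the threshold became 2 with group means removed, 0 without the 2 farthest rats and 2 to 6 without single rats. Vwf with Emcn and Emcn with Egfl7 kept the call without any single rat, Vwf with Egfl7 lost it without noodle rat 4, and Pecam1 with Egfl7 lost it in 8 of 10 such refits and under quantile normalization (r = 0.738, permutation p adjusted 0.0616). Kdr with Pecam1 was 0.261 by Spearman's rho, -0.666 without noodle rat 4 and control rat 2 and -0.494 to 0.630 without single rats, and without the 2 farthest rats Kdr with Egfl7 was -0.112 and Emcn with Cldn5 -0.119. Averaging probe sets by gene changed nothing, since each of the 6 genes has 1 that was not flat. No paired analysis was made because no number occurs in both diets and the labels name no couples of rats. The rats were pair-fed, and the fits take no account of any feeding partners. The values come with no detection calls, and the number of arrays limits their precision.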

Other observations

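Other vessel-related lists gave no call between the diets in limma. Of 7 measured lymphatic endothelial genes 5 were not flat, and 0 of 7 reached an unadjusted p under 0.05. Their direction rested on noodle rat 4: 5 of 5 had a higher mean on the noodle diet with this rat and 0 of 5 without it. Over all rats, 727 of 1632 genes that were not flat had a higher mean, and no such count was made without this rat. The mean centred level of the list was 0.50 in noodle rat 4, from -0.21 to 0.04 in the other noodle rats and from -0.18 to 0.25 in the controls. Of 6 genes of activated endothelium, which guide leukocytes out of vessels, 3 were not flat, 1 higher and 2 lower, and 0 reached an unadjusted p under 0.05. Of 6 measured platelet genes 1 was not flat, Pf4, a platelet chemokine named here after its values were seen, and its r with the mean endothelial level was -0.0876 over 10 rats and -0.674 without noodle rat 4 and control rat 2. Of 12 measured smooth muscle and pericyte genes 5 were not flat, 2 of them higher and 3 lower. Of the 12, 1 reached an unadjusted p under 0.05, which was 1 of the 5. At so few genes this cannot be told apart from the background shares of 4.77% of all probe sets and 8.13% of those not flat.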
